A study of Caenorhabditis elegans with 8 samples.

Results

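The basement membrane is a thin sheet of secreted protein that lies under epithelia and around muscle, nerve and gonad. Laminin heterotrimers, built of 1 alpha, 1 beta and 1 gamma chain, form its first network by binding to cell surface receptors, and collagen IV triple helices form a cross-linked network that gives the sheet its strength. Nidogen and the heparan sulfate proteoglycan perlecan lie between both networks, and SPARC and the type XV/XVIII collagen are associated with them. In C. elegans larvae body wall muscle is known as a main source of collagen IV, perlecan and SPARC, and cle-1 is known to be made by neurons as well as by other cells.

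The levels of 9 such transcripts, taken by gene identifier from a table of 46916 genes, were examined in RNA immunoprecipitation sequencing (RIP-seq) of the double-stranded RNA binding protein ADR-1. The genes were the laminin chains lam-1 (beta), lam-3 and epi-1 (both alpha), the collagen IV chains emb-9 (alpha 1) and let-2 (alpha 2), the perlecan gene unc-52, the nidogen gene nid-1, the SPARC gene ost-1 and the type XV/XVIII collagen gene cle-1. They had been grouped as long matrix transcripts made outside neurons. In the genome annotation (build WBcel235) 7 of the 9 had a longest transcript of over 4000 bases, whereas that of cle-1 was 3734 bases and that of ost-1 1153 bases, so ost-1 is not a long transcript. In the same build lam-1 lies at chrIV:5173332-5183746 and epi-1 at chrIV:10666823-10679291, lam-3 at chrI:10608466-10621435, nid-1 at chrV:12910107-12917221 and ost-1 at chrIV:1107396-1110872, all on the plus strand. On the minus strand lie emb-9 at chrIII:9336881-9344447, let-2 at chrX:16380597-16389340, unc-52 at chrII:14647321-14684456 and cle-1 at chrI:8705668-8724279. Where each transcript was made could not be read from these libraries, which came from whole animals.

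Both strains lacked their own adr-1 and carried the extrachromosomal array blmEx20, in which the neural rab-3 promoter drives FLAG-tagged ADR-1 and, separately, GFP. The control, HAH25 (neural adr-1;adr-1(-)), kept adr-2, and HAH26 (neural adr-1;adr-1(-);adr-2(-)), called adr-2(-) here, did not. ADR-2 is the enzyme that converts adenosine to inosine in C. elegans, and ADR-1 binds double-stranded RNA without having this activity. Larvae of the first stage (L1) that had hatched in buffer without food were UV crosslinked, and RNA was sequenced from the anti-FLAG immunoprecipitate (IP) and from the lysate of whole animals before it (input), with 2 biological replicates of each in each strain. Each strain was 1 transgenic line, and an IP from animals without the tagged protein was not analysed here. An IP value above its input therefore describes the material recovered on the beads and was not set against such a background.

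Values are normalised read counts, meaning reads divided by a size factor for each library, and the 8 libraries differed in depth. Recovered reads numbered 2595323 to 2969937 in the inputs and 20950841 to 79185017 in the IPs, so the inputs rested on the fewest reads. The 9 genes had 44 to 2540 reads each in a control input and 11 to 735 reads each in an adr-2(-) input. Over 13061 genes the IPs numbered 1 of both strains were more alike (r = 0.988) than the replicate IPs of the control (r = 0.814) or of adr-2(-) (r = 0.872). Among markers of other tissues, the summed level of 9 intestinal genes was 71686 and 82511 in the control inputs and 187671 and 208274 in the adr-2(-) inputs. That of 12 body wall muscle genes was 45201 and 47766 in the control inputs against 53193 and 60153, that of 14 neuronal genes was 7929 and 8137 against 11001 and 11596, and that of 8 pharyngeal genes was 4999 and 4854 against 8273 and 8960. The sum of 10 epidermal genes was 8155 and 8764 against 13915 and 15942, although 6 of the 8 tested had a negative log2 change (median -1.23). The log2 change was negative in 5 of 12 muscle genes (median 0.71) and in 8 of 14 neuronal genes (median -0.15). It was negative in 3 of 8 pharyngeal and 1 of 9 intestinal genes. Of the muscle sum, pat-10 held 7219 and 7802 in the control inputs and 22931 and 23798 in adr-2(-). Of the neuronal sum, sbt-1 held 884 and 1033 against 3195 and 3616. The direction of these sums depended on the scaling. As percent of all reads, the muscle sum was 0.506 and 0.617 in the control inputs against 0.295 and 0.260 in adr-2(-). The neuronal sum was 0.0888 and 0.105 against 0.0610 and 0.0502, and the pharyngeal 0.0560 and 0.0627 against 0.0459 and 0.0388. The epidermal was 0.0913 and 0.113 against 0.0772 and 0.0690, and the intestinal overlapped, at 0.802 and 1.07 against 1.04 and 0.901. The germ line list moved the same way as most of the 9 transcripts, with a sum of 2834 and 2999 in the control inputs against 653 and 855. Its median log2 change was -2.54, and 4 of 6 genes were lower at an adjusted p under 0.05 (limma), as were 9.36% of all genes. Of the 6, gld-1 held 987 and 1067 of the control sums, in a row whose deposited mean did not match its values. In the first 4 of these lists every gene was above 0 in every library, and 1 epidermal and 1 germ line gene were at 0 in at least 1 library. The part of cell composition in the results was not tested.

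Because ADR-1 binds double-stranded RNA, the longest perfect inverted repeat of each gene was located, as 2 arms of at least 12 bases that lie within 1000 bases and are the reverse complement of each other. The longest lay in lam-1, on chromosome IV in an intron. Its arms of 53 bases are shown because they are the longest found in any of the 9 genes. The 5′ arm spans chrIV:5182110-5182162 and the 3′ arm chrIV:5182712-5182764 on the plus strand, with 549 bases between them, and capitals mark the paired bases with 5 flanking bases on each side.
lam-1 5′ arm: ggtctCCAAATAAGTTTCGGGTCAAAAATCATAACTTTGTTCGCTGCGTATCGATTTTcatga
lam-1 3′ arm: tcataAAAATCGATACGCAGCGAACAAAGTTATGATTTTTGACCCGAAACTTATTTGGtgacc

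The longest repeat of unc-52 was a compact hairpin of 16 paired bases around a loop of 9 bases, also in an intron (chrII:14681451-14681491, minus strand). It is shown whole because both arms and the loop fit in a short stretch, with the paired bases in capitals.
unc-52 hairpin: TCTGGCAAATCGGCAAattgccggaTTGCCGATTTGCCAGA

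In the gene span, 4 of the 9 genes held arms of at least 14 bases, as did 35.0% of the 12917 genes searched, and all 9 genes, at 3477 to 37136 bases, are longer than the median gene of 2604 bases. Arms of 53 bases or more occurred in 5.51% of genes. In the spliced transcripts, which are what poly(A) selection retains once splicing is complete, no member had arms of 14 bases, against 4.35% of all genes. The longest spliced arms were 13 bases, in lam-1 and let-2. By contrast lam-2, the single gamma chain that pairs with lam-1 and either alpha chain in every laminin, held arms of 17 bases in its 3′ UTR on chromosome X, a length reached in spliced form by 1.63% of genes. They are shown because they are the longest spliced arms among the 4 laminin genes, and editing of this UTR by ADR-2 is long known.
lam-2 5′ arm: gtcggCAAATAATTATTGACGTgtttt
lam-2 3′ arm: aaaatACGTCAATAATTATTTGtctac
These are matches of letters in the reference genome, and whether the strands pair in the animal was not measured.

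The levels in whole animals were compared first. Per kilobase of exon, the mean control input was 2872 for ost-1, 1170 for let-2, 765 for emb-9, 314 for lam-1, 138 for epi-1, 134 for lam-3, 110 for nid-1, 105 for unc-52 and 29.3 for cle-1. Within this order the replicates of epi-1 and lam-3 overlapped, and the means of nid-1 and unc-52 differed by less than the replicates of nid-1 did. In the adr-2(-) inputs ost-1 was again highest at 4049 per kilobase, followed by emb-9 at 341 and let-2 at 308, whose replicates overlapped. Then came lam-1 at 130.7, nid-1 at 96.9, epi-1 at 84.9, lam-3 at 57.9, unc-52 at 55.1 and cle-1 at 22.2. There the replicates of nid-1 and epi-1 overlapped, as did those of lam-3 and unc-52. let-2 thus stood clear above emb-9 in the control but not in adr-2(-), and nid-1, below both alpha laminins in the control, stood above lam-3 in adr-2(-).

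**Figure D1:**
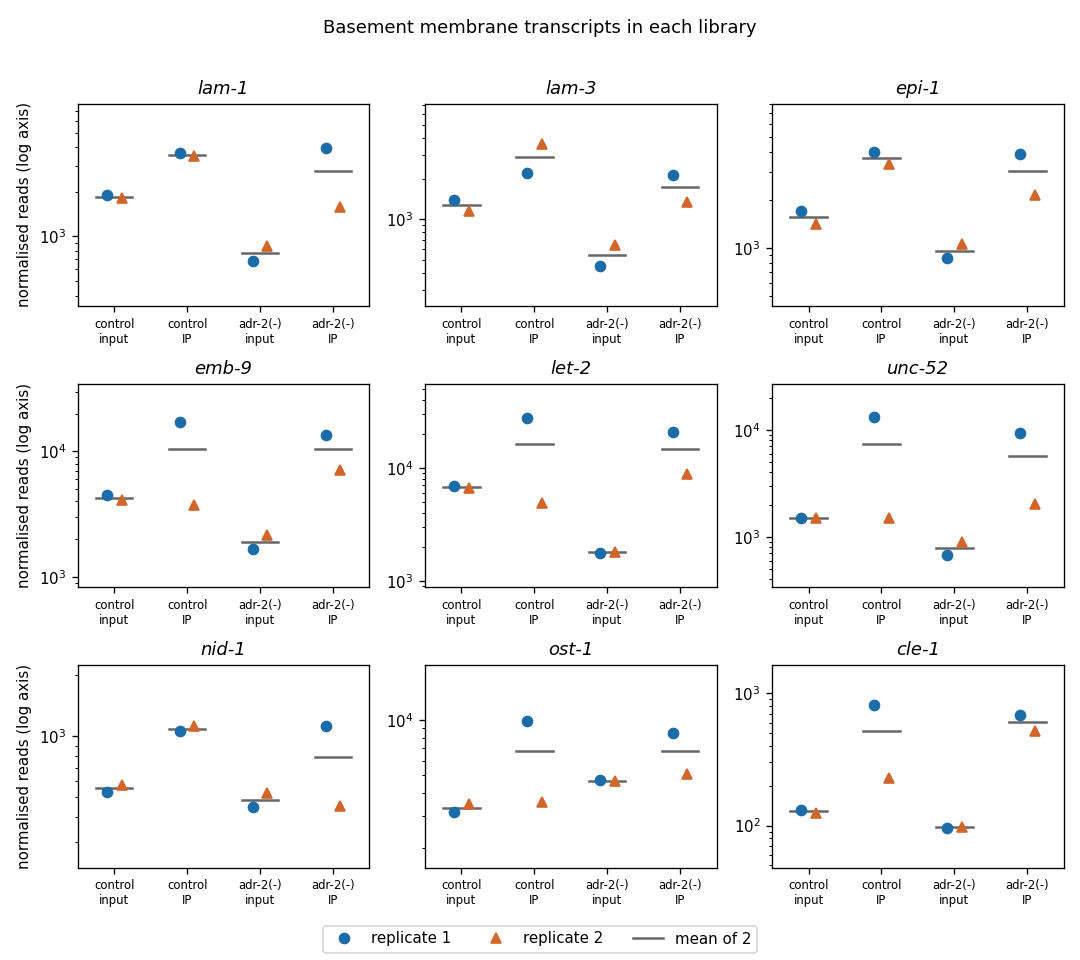
Normalised read counts (log axis) of the 9 genes in the 4 groups, with replicate 1 as circles, replicate 2 as triangles and the mean of 2 as a line. In the control IPs the replicates lie 8.84-fold apart for unc-52 and 1.05-fold apart for lam-1, and in the inputs 8 of the 9 genes are lower in adr-2(-), with ost-1 higher.

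To describe what the anti-FLAG beads recovered in the control, IP and input were compared. All 9 transcripts had a higher mean in the IP, by 1.92-fold for lam-1 to 4.93-fold for unc-52, but in 5 of them the replicate IPs differed by 2.77-fold or more. The laminins were the steadier group. The beta chain lam-1 had 1889 and 1821 normalised reads in the inputs and 3638 and 3476 in the IPs. The alpha chain epi-1, the laminin of most tissues, had 1700 and 1410 in the inputs and 4025 and 3342 in the IPs. The other alpha chain, lam-3, which is prominent in the pharynx, had 1384 and 1149 in the inputs and 2211 and 3586 in the IPs. In all 3 laminins both IPs thus lay above both inputs, and lam-3 alone among them was higher in IP 2 than in IP 1.

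The collagen IV chains behaved otherwise. emb-9 had 4458 and 4132 normalised reads in the control inputs and 17089 and 3733 in the IPs, and let-2 had 6945 and 6693 in the inputs and 27326 and 4855 in the IPs. For both chains IP 1 was further above its input than any laminin was in either replicate, while IP 2 lay below both inputs. Perlecan showed the widest gap. unc-52 had 1504 and 1494 normalised reads in the inputs, 13287 in IP 1 and 1503 in IP 2, so that the whole of its excess in the mean came from 1 library.

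Of the remaining 3 genes, nid-1, which encodes the linker nidogen, resembled the laminins with 532 and 577 normalised reads in the control inputs and 1060 and 1122 in the IPs. ost-1, whose product SPARC binds collagen, had 3137 and 3486 in the inputs and 9916 and 3575 in the IPs. cle-1 had 132 and 124 in the inputs and 815 and 229 in the IPs. IP 1 was high and IP 2 close to the inputs for ost-1, and cle-1 was above its inputs in both.

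In the fit over all 13276 genes tested (limma), the control IP was higher than input by a median log2 change of 0.98 over the 9 genes, against 0.11 over all genes. The changes ranged from 0.76 ± 0.74 (SE) for let-2 to 1.75 ± 0.56 for cle-1, with n = 2 in each group. No member was called higher at an adjusted p under 0.001, the threshold of the study, where 0% of all genes were called higher. Adjusted p-values ran from 0.122 for epi-1 to 0.616 for let-2, and 3 members had an unadjusted p under 0.05, as had 8.47% of all genes in this direction. With edgeR no member was called at 0.001 either, and with DESeq2 none was called at 0.001 and 1 at 0.05, where 4.81% of all genes were called higher. limma called none at 0.05, where 0.535% of all genes were called higher, or 0% when rows whose deposited mean did not match their values were left out. It called 5 without control IP 2, where 8.73% of all genes were, and 1 without either adr-2(-) IP, where 1.03% were. Both IPs lay above both inputs in 6 of the 9 genes, a pattern seen in 26.1% of all genes. Without control IP 1 the log2 change of emb-9 was -0.20, that of let-2 -0.49 and that of unc-52 0.0038, and without control IP 2 it was 1.99 for emb-9, 2.00 for let-2 and 3.15 for unc-52.

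The same 2 IPs of the control also stood apart in the summed levels of markers. The 12 muscle genes summed to 114292 in control IP 1 and 29168 in control IP 2, the 8 pharyngeal genes to 22982 and 6704 and the 10 epidermal genes to 36838 and 12999. The 9 intestinal genes summed to 22125 and 9761 and the 14 neuronal genes to 19278 and 10024, while the 6 germ line genes were lower in IP 1, at 756 against 1393, 1 of them (gld-1) in a row whose deposited mean did not match its values. Their part in the split of emb-9, let-2 and unc-52 was not tested.

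The same comparison was then made in adr-2(-). Here the mean IP was 5.43-fold above input for emb-9, 8.20-fold for let-2 and 7.24-fold for unc-52, and between 3.15-fold and 3.56-fold for the 3 laminins. Among the laminins, lam-1 had 679 and 864 normalised reads in the inputs and 3915 and 1573 in the IPs. epi-1 had 858 and 1051 in the inputs and 3885 and 2152 in the IPs. lam-3 had 455 and 641 in the inputs and 2108 and 1347 in the IPs. As in the control, all 3 had both IPs above both inputs, but here IP 1 was the higher in each.

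The collagen IV chains no longer straddled their inputs in adr-2(-). emb-9 had 1665 and 2164 normalised reads in the inputs and 13635 and 7154 in the IPs, and let-2 had 1767 and 1817 in the inputs and 20655 and 8753 in the IPs. unc-52 had 679 and 891 in the inputs and 9325 and 2039 in the IPs. For these 3 genes the replicate IPs were still 1.91-fold, 2.36-fold and 4.57-fold apart, but the lower one now stood above the inputs.

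Nidogen and SPARC showed the least excess in adr-2(-). nid-1 had 448 and 525 normalised reads in the inputs and 1121 and 453 in the IPs, so the groups overlapped. ost-1 had 4707 and 4631 in the inputs and 8487 and 5052 in the IPs. cle-1 was far above its inputs, with 96.05 and 97.97 normalised reads in the inputs and 682 and 521 in the IPs, although the inputs rested on only 15 and 11 reads.

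**Figure D2:**
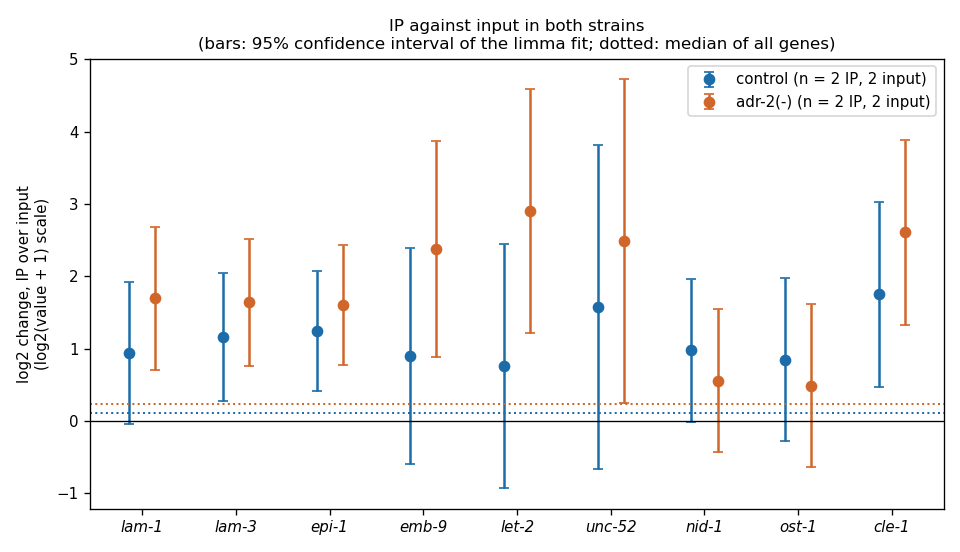
Log2 change of IP over input for the 9 genes in the control (blue) and in adr-2(-) (orange), with 95% confidence intervals of the limma fit (n = 2 IPs and 2 inputs per strain) and dotted lines at the median of all genes, 0.11 and 0.23. All points lie above 0, and the interval includes 0 for 6 of the 9 genes in the control and for nid-1 and ost-1 in adr-2(-).

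The median log2 change of IP over input in adr-2(-) was 1.69 over the 9 genes, against 0.23 over all genes, and ran from 0.49 ± 0.49 (SE) for ost-1 to 2.91 ± 0.74 for let-2. No member was called at an adjusted p under 0.001 (limma), where 0.226% of all genes were called higher, while 7 had an unadjusted p under 0.05, as had 22.6% of all genes. At this threshold edgeR called no member and 0.105% of all genes higher, and DESeq2 called 1 member, let-2, and 4.32% of all genes. When the threshold on the adjusted p was 0.05, limma called 6 of the 9 genes and 14.3% of all genes. The 6 were cle-1 (adjusted p = 0.0138), epi-1 (0.0162), lam-3 (0.0183), let-2 (0.0241), lam-1 (0.0243) and emb-9 (0.0321), whereas unc-52 (0.0983), nid-1 (0.374) and ost-1 (0.495) were not called. Both IPs lay above both inputs in 8 of the 9 genes, against 39.1% of all genes. The calls at 0.05 numbered 0 without adr-2(-) IP 1, where 4.41% of all genes were called higher, and 0 without adr-2(-) input 1 or 2, where 7.51% and 5.23% were. They numbered 3 without control input 1 or 2, where 8.31% and 8.25% were. Of the markers of other tissues, 8 of 14 neuronal, 4 of 8 pharyngeal, 4 of 8 epidermal, 4 of 12 body wall muscle and 1 of 6 germ line genes were also called higher at 0.05 in this comparison. Against 10.4% of all genes, 4 of 9 intestinal and 1 of 12 body wall muscle marker genes were called lower. Their part in the recovery of the 9 transcripts was not tested.

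Transcript length moved with these changes over the whole table. Over 12717 protein-coding genes, the correlation across genes of log2 transcript length with the log2 change of IP over input was 0.21 in the control and 0.48 in adr-2(-), where genes share the same libraries and are not independent. In adr-2(-) the median log2 change was -0.80 for transcripts under 1000 bases and 1.56 for the 645 genes of 4000 bases or more. The 7 members of over 4000 bases had a median of 1.69 there, with 3 of them between the quartiles of genes of that length, 3 above and 1 below. In the control the same 7 had a median of 0.98 against 0.58, with 5 between the quartiles and 2 above. The part of length in the IP values was not tested.

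Whether the recovery on the beads differed between the strains was examined as a ratio of ratios, which divides IP over input of adr-2(-) by that of the control. It was positive for 7 of the 9 genes, with a log2 value of 2.15 ± 1.04 (SE) for let-2, 1.48 ± 0.92 for emb-9, 0.91 ± 1.38 for unc-52, 0.86 ± 0.79 for cle-1 and 0.76 ± 0.61 for lam-1. lam-3 followed at 0.48 ± 0.54 and epi-1 at 0.36 ± 0.51, while nid-1 was at -0.42 ± 0.61 and ost-1 at -0.36 ± 0.70. All of these intervals included 0. Single IP libraries decided the size of several values. Without control IP 1 the ratio of ratios was 3.40 for let-2, 2.58 for emb-9, 2.48 for unc-52, 1.77 for cle-1 and 0.38 for ost-1, and without control IP 2 it was 0.90, 0.39, -0.66, -0.053 and -1.10 in the same order. Without adr-2(-) IP 1 it was 0.098 for lam-1, -0.065 for epi-1, -0.19 for unc-52 and -1.07 for nid-1, and without adr-2(-) IP 2 it was 1.41, 0.79, 2.01 and 0.23. No member was called by limma at an adjusted p under 0.001, where 1.37% of all genes were called higher (0% once the rows whose mean did not match were left out), and none had an unadjusted p under 0.05, as had 10.6% of all genes in the higher and 7.2% in the lower direction. edgeR and DESeq2 called none either. At 0.05 limma also called none, but 3 higher without control IP 1, where 7.91% of all genes were. The adjusted p was lowest for let-2, at 0.322, with a 95% confidence interval from -0.24 to 4.54. The 7 members of over 4000 bases had a median of 0.76, against 0.96 for all genes of that length and -0.81 for transcripts under 1000 bases.

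The 2 sides of this ratio were then taken apart by comparing the strains within each fraction, with the same libraries entering both. In the inputs 8 of the 9 transcripts had lower levels in adr-2(-). let-2 was 3.80-fold lower in the mean, lam-1 2.40-fold, lam-3 2.31-fold, emb-9 2.24-fold, unc-52 1.91-fold, epi-1 1.63-fold, cle-1 1.32-fold and nid-1 1.14-fold, whereas ost-1 was 1.41-fold higher. The direction of ost-1 depended on the scaling, as it turned to lower with the libraries rescaled to the same total. For all 9 genes the 2 inputs of one strain lay outside those of the other, a pattern seen in the lower direction in 37.1% of all genes and in the higher direction in 38.3%. As whole animals were lysed, fewer cells of a type and less of a transcript per cell cannot be told apart.

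In the fit, the log2 change of the inputs was -1.93 ± 0.74 (SE) for let-2, -1.27 ± 0.43 for lam-1, -1.22 ± 0.39 for lam-3 and -1.18 ± 0.65 for emb-9. The median over the 9 genes was -0.95, against 0.01 over all genes. No member was called lower at an adjusted p under 0.001 (limma), where 0% of all genes were, or at 0.05, where 9.36% were, and 3 members had an unadjusted p under 0.05, as had 18.4% of all genes. edgeR called none at either threshold, and DESeq2 called none at 0.001 and 1 lower at 0.05, where 9.04% of all genes were. At 0.05 limma called 3 members lower without either control IP, where 15.6% and 15.4% of all genes were, 1 without either adr-2(-) IP, where 8.63% were, and 8 with the libraries rescaled to the same total, where 32.0% of all genes were. The adjusted p was 0.0669 for lam-3, 0.0806 for lam-1 and 0.111 for let-2. ost-1, at 0.50 ± 0.49, had an adjusted p of 0.508.

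Length tracked this difference as well, with a correlation of -0.45 over 12717 genes and of -0.64 over the 9 genes, which share their libraries. Median log2 changes of the inputs were 0.95 for transcripts under 1000 bases, -0.02 from 1000 to 2000 bases, -0.71 from 2000 to 4000 bases and -1.04 from 4000 bases on. The 7 members of over 4000 bases had a median of -1.18 and 5 lay between the quartiles of that class. let-2 lay below the lower quartile of -1.64, and nid-1, at -0.19, lay above the upper quartile of -0.36. ost-1, at 1153 bases, lay between the quartiles of its own class. The part of length in the input values was not tested.

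**Figure D3:**
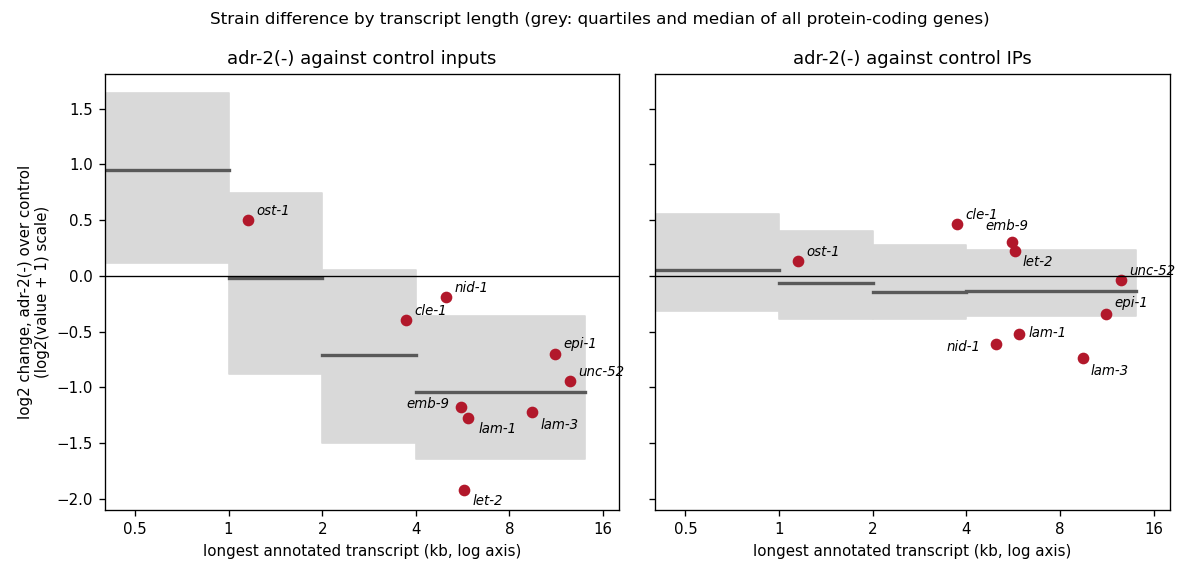
Log2 change of adr-2(-) over control in the inputs (left) and in the IPs (right) against the length of the longest annotated transcript (kb, log axis), with the 9 genes in red and the median (line) and quartiles (grey) of all protein-coding genes in 4 length classes. The class medians fall from 0.95 to -1.04 in the inputs and lie between 0.05 and -0.15 in the IPs.

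Between the IPs of the strains, the fitted change was positive in 4 genes and negative in 5. The log2 change of adr-2(-) over control ran from -0.74 ± 0.39 (SE) for lam-3 to 0.46 ± 0.56 for cle-1, with a median of -0.04 over the 9 genes and all adjusted p-values at 0.982 or above (limma). No member was called higher, as were 1.3% of all genes at 0.001 (0% once the rows whose mean did not match were left out), and edgeR and DESeq2 called none. None had an unadjusted p under 0.05, as had 2.17% of all genes in the higher and 0.0904% in the lower direction. The 2 strains overlapped in 8 of the 9 genes. The exception was lam-3, whose control IPs of 2211 and 3586 normalised reads lay above the adr-2(-) IPs of 2108 and 1347, a pattern seen in 8.43% of all genes. The wide intervals, such as -1.46 to 1.91 for let-2, leave differences of more than 2-fold in either direction undetected. Between the IPs numbered 1, control over adr-2(-) ran from -0.11 for lam-1 to 0.51 for unc-52 in log2. Between those numbered 2 it ran from -1.18 for cle-1 to 1.41 for lam-3. The 7 members of over 4000 bases had a median change of -0.34, against -0.14 for genes of that length. Of these members 3 lay between the quartiles, 1 above and 3 below. IP 1 stood above IP 2 in all 9 genes in adr-2(-) and in 7 of 9 in the control. Of the marker sums in adr-2(-), IP 1 stood above IP 2 for the epidermal (28874 and 6109), body wall muscle (96914 and 88840) and germ line genes (1307 and 622). It stood below IP 2 for the neuronal (16582 and 23173), intestinal (20336 and 30111) and pharyngeal genes (18206 and 21704). As percent of all reads, the body wall muscle sum was 0.810 in adr-2(-) IP 1 and 1.31 in IP 2. The part of these markers in the gap between the adr-2(-) IPs was not tested.

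Since the ratio of reads of 2 genes within a library does not depend on how the library was scaled, such ratios were taken for genes whose products work together. Collagen IV is a trimer of emb-9 and let-2 chains. In the control inputs let-2 had 1.56 and 1.62 reads for each emb-9 read (95% exact intervals 1.46 to 1.66 and 1.52 to 1.73), and in the adr-2(-) inputs 1.06 and 0.840 (0.893 to 1.26 and 0.693 to 1.02). The intervals of the 2 strains did not meet, although they cover counting error only. In the IPs the ratio was 1.60 and 1.30 in the control and 1.51 and 1.22 in adr-2(-), so the strains overlapped there. With 2 libraries against 2, an exact two-sided permutation test cannot go below p = 0.333, and no such test was used on these ratios.

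Laminin beta and gamma, which are needed in equal numbers in each trimer, also differed in their ratio between the inputs of the strains. lam-1 had 0.835 and 0.960 reads for each lam-2 read in the control inputs and 1.66 and 1.39 in the adr-2(-) inputs. So did the alpha chains, with 1.23 and 1.23 epi-1 reads for each lam-3 read in the control inputs and 1.89 and 1.64 in adr-2(-). The counting intervals met between the strains in part, as in the second replicates of lam-1 over lam-2 (0.863 to 1.07 and 1.01 to 1.91) and of epi-1 over lam-3 (1.08 to 1.40 and 1.21 to 2.23). Not every pair differed in the inputs. lam-1 over lam-3 was 1.37 and 1.58 in the control and 1.49 and 1.35 in adr-2(-), so the strains overlapped. emb-9 over lam-1 was 2.36 and 2.27 against 2.45 and 2.51, and these counting intervals met. For lam-1 over epi-1 and let-2 over lam-1 the strains did not overlap. lam-1 over epi-1 was 1.11 and 1.29 against 0.791 and 0.822, and the counting intervals met in part. let-2 over lam-1 was 3.68 and 3.68 against 2.60 and 2.10, and the counting intervals did not meet.

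Nidogen and SPARC had more reads per read of their partners in the adr-2(-) inputs than in the control inputs. nid-1 had 0.282 and 0.317 reads for each lam-1 read in the control inputs and 0.660 and 0.608 in adr-2(-), while all 4 IPs lay between 0.286 and 0.323. ost-1 had 0.704 and 0.844 reads for each emb-9 read in the control inputs and 2.83 and 2.14 in adr-2(-), while the IPs lay between 0.580 and 0.958. In both pairs the counting intervals of the strains did not meet in the inputs. The longest transcripts of ost-1 and emb-9 have 1153 and 5611 bases. Their length classes had median log2 changes of -0.02 and -1.04 in the inputs. The part of length in the ratio of ost-1 to emb-9 was not tested. The ratio of unc-52 to lam-1 varied little in the inputs, between 0.796 and 1.03, but in the IPs it was 3.65 and 0.432 in the control and 2.38 and 1.30 in adr-2(-).

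**Figure D4:**
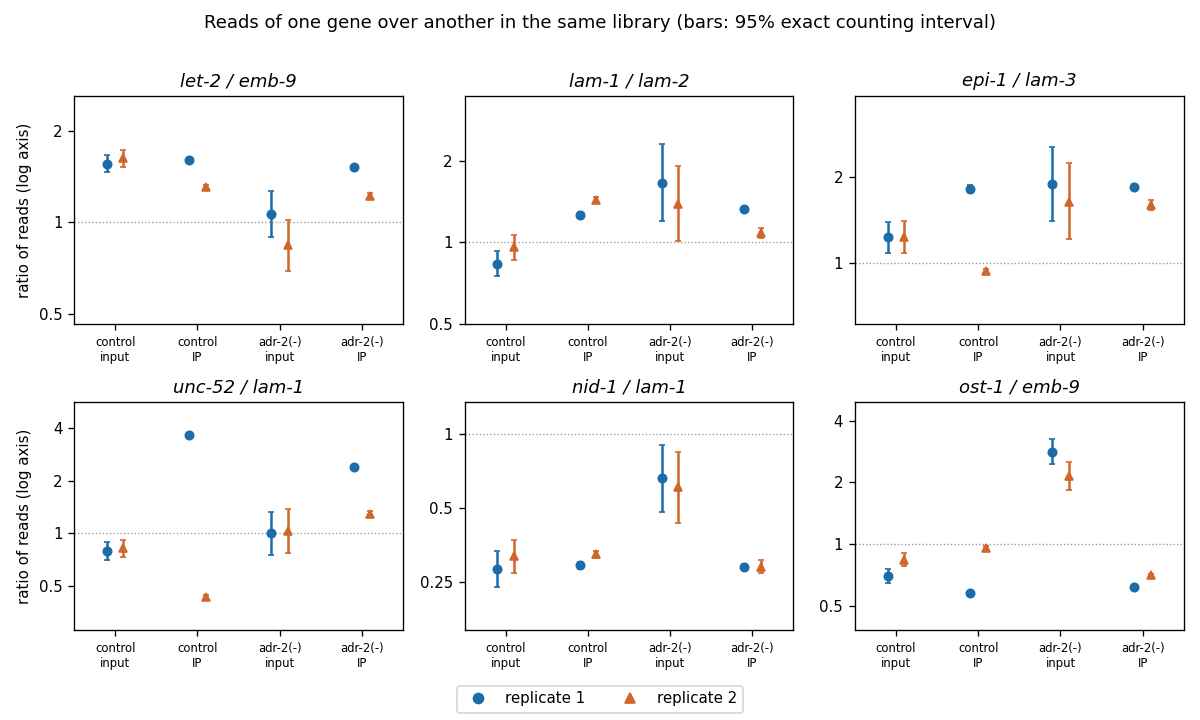
Reads of 1 gene divided by reads of another in the same library (log axis) for 6 pairs, with replicate 1 as circles, replicate 2 as triangles and bars for 95% exact counting intervals. The adr-2(-) inputs stand at 2.83 and 2.14 for ost-1 over emb-9, above the other 6 libraries, and the control IPs stand at 3.65 and 0.432 for unc-52 over lam-1.

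The 9 profiles were compared with each other over the 8 libraries. The 2 collagen IV chains were the most alike pair (r = 0.985), and lam-3 and ost-1 the least alike (r = 0.21). Against the mean of the other members r was highest for epi-1 (0.96) and lowest for ost-1 (0.63), lam-3 (0.77) and nid-1 (0.79). Among 8025 other genes with a mean of at least 100 normalised reads, the profiles most like the mean of the 9 were those of pat-2 (r = 0.996), cdh-1 (0.994), rhgf-2 (0.992), lim-8 (0.990) and anc-1 (0.989). pat-2 encodes an alpha integrin of body wall muscle, and anc-1 encodes a giant protein that anchors nuclei. These coefficients rest on 8 libraries in 4 groups and describe the order of the groups as much as the replicates.

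Other genes of the basement membrane were counted in full, as 32 genes of which 30 were tested, the receptor genes dgn-2 and dgn-3 having fallen under the filter on low values. None was called at an adjusted p under 0.001 (limma) in any of the 5 comparisons. At 0.05, adr-2(-) IP over input was higher in 14 of the 30, against 14.3% of all genes, with 1 laminin chain, 4 of 10 cell surface receptors, 5 of 10 other matrix proteins and 4 of 9 genes of collagen processing and proteolysis. Control IP over input was higher in 1 of the 30, against 0.535% of all genes, which was agr-1, the agrin gene, at a log2 change of 2.24 (adjusted p = 0.0216). This call was lost, as were those of all other genes in this comparison, when the rows whose mean did not match their values were left out. The adr-2(-) inputs were lower in 5 of the 30 at 0.05, against 9.36% of all genes, which were lam-2, dgn-1, sdn-1, mig-6 and tmem-131.

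The named examples covered each role. lam-2 had 2262 and 1897 normalised reads in the control inputs, 410 and 623 in the adr-2(-) inputs, 2878 and 2418 in the control IPs and 2949 and 1454 in those of adr-2(-). The inputs of lam-2 were lower in adr-2(-) by a log2 change of -2.03 ± 0.41 (SE, adjusted p = 0.0175), the IP over input was 2.03 in adr-2(-) (adjusted p = 0.0108) and 0.35 in the control (adjusted p = 0.682), and the ratio of ratios was 1.68 (adjusted p = 0.181). The dystroglycan gene dgn-1, a laminin receptor, had 349 and 261 normalised reads in the control inputs and 64.03 and 35.6 in the adr-2(-) inputs, which rested on 10 and 4 reads. Its IP over input in adr-2(-) was 3.94 on the log2 scale (adjusted p = 0.00393).

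Genes that modify or cut the matrix included those with the largest changes of IP over input among the 30 in both strains. gon-1, an ADAMTS protease that remodels the basement membrane, had 159 and 179 normalised reads in the control inputs, 32.0 and 17.8 in the adr-2(-) inputs, 1650 and 247 in the control IPs and 1311 and 330 in those of adr-2(-). The IP over input of gon-1 in adr-2(-) was 4.73 on the log2 scale (adjusted p = 0.00960), against inputs of only 5 and 2 reads. phy-2, a prolyl 4-hydroxylase subunit that acts on collagen, had 325 and 274 in the control inputs and 5320 and 506 in the control IPs, and its IP over input in adr-2(-) was 4.37 (adjusted p = 0.0156). As with emb-9, let-2 and unc-52, control IP 1 of both genes lay far above control IP 2. phy-3, another prolyl 4-hydroxylase, had a log2 change of 0.81 between the IPs of the strains, and phy-2 of 0.97, and neither was called.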

How the data were processed

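By the study's methods, the authors aligned stranded single-end reads of poly(A)-selected RNA to ce11 with WormBase WS275 genes by STAR (version 2.7.8a in the submitters' processing notes, another version in the methods), kept uniquely mapped reads, counted them on the sense strand with featureCounts and divided by DESeq2 size factors. The deposited values are these normalised reads, a signal per gene. The authors' table also holds a mean, a log2 ratio of ratios, a likelihood ratio score and p-values, raw and adjusted, none of which were used as results. Changes are therefore relative to what the size factors hold equal between libraries. In 223 of 46917 rows the deposited mean did not match the values (within 0.02 or 0.1%), but in those of all 9 members it did. Dividing by the value of 1 read gave whole reads, within 0.0051 units, for at least 99.8% of the values in matching rows.

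limma (version 3.58.1, R 4.3.3; lmFit, eBayes with trend) was fitted to log2(value + 1) of 8 libraries with 4 group means, for 13276 genes whose mean reached 10, so fold changes of low genes are understated. P-values were adjusted by Benjamini-Hochberg, with calls at 0.001 and a log2 change of at least 1 in size, and 0.05 as an alternative. edgeR 4.0.16 and DESeq2 1.42.0 were run on the recovered reads as alternatives. The fit was tested on simulated counts. Coordinates and lengths come from the WBcel235 annotation, of the authors' assembly, and sequences from the RefSeq copy of that assembly. Inverted repeats were searched in Python 3.11.15. Intervals of read ratios are Clopper-Pearson at 95% and cover only the counting error, PCR copies not being independent. The titles call the replicates biological, and nothing more is stated of their source.

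The members and gene lists were chosen with earlier results of these data known. All 9 members are named in every comparison. Of 32 other basement membrane genes, those past 0.001 or among the 3 with the largest change in size are named, with lam-2 always, while sdn-1, mig-6 and tmem-131 were named after their values were seen.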

Additional observations from a re-analysis of the deposited data

How the results depend on the processing

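Of 196 counts of called members recomputed, 191 stayed at 0, as every count was in the main setting. At 0.001 that setting called 0% of all genes higher in control IP over input and 0% in either direction in the inputs. It called 0% lower in the IPs and in the ratio of ratios, so these counts had little room to change. The 5 counts that changed were all adr-2(-) IP over input. They became 6 at an adjusted p under 0.05 (14.3% of all genes, against 0.226% in the main setting), 6 with libraries rescaled to the same total (7.04%) and 1 with DESeq2 (let-2, 4.32%). The rest of these counts of adr-2(-) IP over input changed when a control IP was left out, which leaves 1 library in that group. Rescaling to the same total shifted the all-gene median log2 change in that comparison from 0.23 to 1.42. It shifted that of the inputs from 0.01 to -1.26 and that of the ratio of ratios from 0.02 to 1.43. It turned the ratio of ratios of nid-1 to 1.00 and of ost-1 to 1.07. The inputs of ost-1 turned to -0.80 and the IPs of unc-52 to 0.10. At 0.05 the rescaling gave 9 members higher in adr-2(-) IP over input, where 36.8% of all genes were. It also gave 3 higher in the ratio of ratios, where 13.2% were, and 8 lower in the inputs, where 32.0% were. The rRNA gene rrn-3.1 held 30.6% and 16.8% of reads in the control inputs and 32.9% and 44.6% in the adr-2(-) inputs. In the IPs it held 13.9% to 49.6%. Its part in these shifts was not tested.

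The titles number the replicates, but same-numbered deviations correlated at 0.46 only between the IPs of the strains and between -0.01 and 0.04 otherwise, so the numbers were not taken as pairs. A replicate block by number gave 7 members at 0.05 in adr-2(-) IP over input, where 15.8% of all genes were called higher. A replicate block within strain gave 6, where 1721 of 13276 genes were called, and, being aliased with strain, can give no value for the inputs or IPs between strains. edgeR gave -0.068 and DESeq2 -0.12 for the IPs of let-2. Without the filter on low values 3 members passed 0.05, as did 6.6% of 27456 genes. Leaving out the rows whose mean did not match their values took the share of all genes called higher from 1.37% to 0% in the ratio of ratios and from 1.3% to 0% in the IPs.

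Leaving out each library turned 22 of 360 member values. In control IP over input emb-9 ran from -0.20 to 1.99 and let-2 from -0.49 to 2.00, and in adr-2(-) nid-1 from -0.10 to 1.21. Ratios of ratios ran from -0.065 to 0.79 for epi-1, -0.66 to 2.48 for unc-52, -1.07 to 0.23 for nid-1, -1.10 to 0.38 for ost-1 and -0.053 to 1.77 for cle-1. In the IPs the ranges were -1.18 to 0.14 for lam-1, -0.77 to 0.083 for epi-1, -0.79 to 1.40 for emb-9, -1.02 to 1.47 for let-2, -1.61 to 1.54 for unc-52, -1.27 to 0.040 for nid-1, -0.60 to 0.87 for ost-1 and -0.45 to 1.38 for cle-1. No member changed direction in the inputs when a library was left out. That was fixed in advance, as the inputs of the strains overlapped in no member. The cause of these shifts was not tested. The inputs, with 11 to 2540 reads per member, set the limit of depth.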
